A study of Mus musculus with 23 samples.

Results

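The CD antigens are the surface molecules of the cluster-of-differentiation scheme, and the genes described here are those measured by a probe with a single gene symbol that begins with Cd followed directly by a digit. That rule took 53 probes for 49 genes, out of 9596 probes and 6795 genes on the arrays. A further 2 probes were left out because a CD antigen shared the probe with another symbol. The 49 genes were placed by the main cell type that carries the antigen. The T and NK cell group held 11, the B cell group 5, the group of macrophages, dendritic cells and other myeloid cells 11, the antigens of most leukocytes 5, endothelium and stroma 2, and epithelium and most cell types 13. The other 2, Cd2ap and Cd2bp2, encode intracellular proteins that are named after an antigen they bind, and Cd5l encodes a protein that macrophages secrete, so the rule by symbol reaches slightly beyond surface antigens.

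Each array compared RNA from a bigenic and a monogenic skin tumour of FVB mice. The labels give the bigenic genotype as K5rTA tetOTGFbeta and the monogenic one as K5rTA. The keratin 5 promoter thus drives the doxycycline-controlled activator in basal keratinocytes of both genotypes, and only the bigenic mice carry the TGFbeta transgene that it switches on. Adult mice, labelled as 7 to 12 weeks of age, had received 100 ug DMBA once. TPA was given at 5 ug, 2 times a week, for 20 weeks. The labels give an onset of 12 to 14 weeks for papillomas and 25 to 35 weeks for carcinomas, so the classes also differ in this time. All tumour-bearing mice, controls included, ate chow with 1 g doxycycline per kg for 48 h before harvest. The papillomas were covered by 14 arrays, which made 11 pairs from 8 bigenic and 7 monogenic tumours, and the carcinomas by 9 arrays, which made 7 pairs from 5 bigenic and 4 monogenic tumours. Some tumours entered more than 1 pair, names such as 228A and 228B may or may not come from 1 animal, and the p-values treat pairs as independent.

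Leukocytes, keratinocytes, endothelial cells and fibroblasts each carry a characteristic set of these molecules. Some are parts of antigen receptors (Cd3e, Cd79a), some are co-stimulatory ligands or scavenger receptors (Cd86, Cd163), some are tetraspanins that organise integrins in the membrane (Cd151, Cd82), and some restrain macrophages or complement (Cd47, Cd200, Cd55). In mouse skin tumours the leukocyte antigens come from the infiltrate and the stroma, whereas Cd44, Cd151 and Cd24a are also found on keratinocytes. TGF-beta is known in this tissue both as a brake on keratinocyte growth and as a regulator of leukocytes.

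All values below are log2 ratios of bigenic against monogenic tumour, in which the base of the logarithm was taken to be 2. Neither the labels nor the value table record which dye was divided by the other. With Cy5 as the numerator, a value on the positive side means that the bigenic tumour held more of the RNA. With Cy3 as the numerator it means the reverse, and every sign below turns. Tgfb1 was on the positive side on 5 of 5 papilloma arrays that measured it (0.78 ± 0.69, SD) and on 2 of 5 carcinoma arrays (0.03 ± 0.68, SD). All of these papilloma arrays had the bigenic tumour in Cy3. The carcinoma arrays with it in Cy3 read -0.875, -0.151 and -0.165, and those with it in Cy5 read 0.393 and 0.936. The part of the dye in the Tgfb1 values was not tested. The arrays held 6729 to 9573 values and the member probes measured on an array numbered 37 to 53. The SD of an array's values ran from 0.29 to 1.20, and the widest array was the papilloma pair of bigenic tumour 1762D with monogenic tumour 257B. No intensities were used here, so the presence of a cell type's markers could not be checked as a level, and fewer cells of a type cannot be told apart from less RNA per cell. In the 5 pairs hybridised in both dye orientations, 129 of 214 comparisons of member probes (60.3%) were on the same side on both arrays, from 48.7% to 69.6% by pair, against 46.6% to 54.9% over all probes.

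Of the 49 genes, 46 were measured in at least 8 papilloma and 5 carcinoma pairs and were tested among 6413 genes. The fitted value is the mean of a class, weighted by the number of arrays in a pair and given with its standard error (SE). The adjusted p is limma's, corrected by the Benjamini-Hochberg method over all 6413 genes, with 0.05 as the threshold. No member passed it in papillomas, where 0.0624% of all genes did, none in carcinomas (background 0.0936%), none for the difference between the classes (0.359%) and none for the mean of both classes (0.0156%). At an unadjusted p under 0.05, limma's fit gave 5 of 46 members in papillomas, 9 in carcinomas, 5 for the difference and 7 for the mean of both, against 9.79%, 10.8%, 7.72% and 12.6% of all genes. For the mean of both classes 6 were on the positive side (5.32% of all genes) and 1 on the negative side (7.27%), and 36 of 46 fitted values were above 0 (51.1%). The lowest adjusted p of a member was 0.277 in papillomas (Cd200), 0.183 in carcinomas (Cd300c2) and 0.160 for the difference (Cd151).

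The members lay more often on the positive side than the genes at large. In papillomas 33 of 46 fitted values were above 0, against 53.9% of all genes, and the members' median was 0.13 against 0.017. In carcinomas 34 of 46 were above 0, against 49.1% of all genes, and the medians were 0.14 and -0.0058. Counted by tumour pair, the members' median was above 0 in 7 of 7 carcinoma pairs (0.045 to 0.48) and in 7 of 11 papilloma pairs (-0.081 to 0.27). The SD of this median between pairs was 0.17 in carcinomas and 0.11 in papillomas. At an unadjusted p under 0.05 the carcinomas had 7 members on the positive side (Cd48, Cd52, Cd55, Cd68, Cd86, Cd93 and Cd300c2), against a background of 4.44%, and 2 on the negative side (Cd44 and Cd151), against 6.38%. The papillomas had 4 on the positive side (Cd7, Cd47, Cd82 and Cd200), against 4.32%, and 1 on the negative side (Cd37), against 5.47%. For the difference the 2 positive members, Cd93 and Cd300c2, stood against 3.07% and the 3 negative ones, Cd151, Cd163 and Cd200, against 4.65%.

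**Figure D1:**
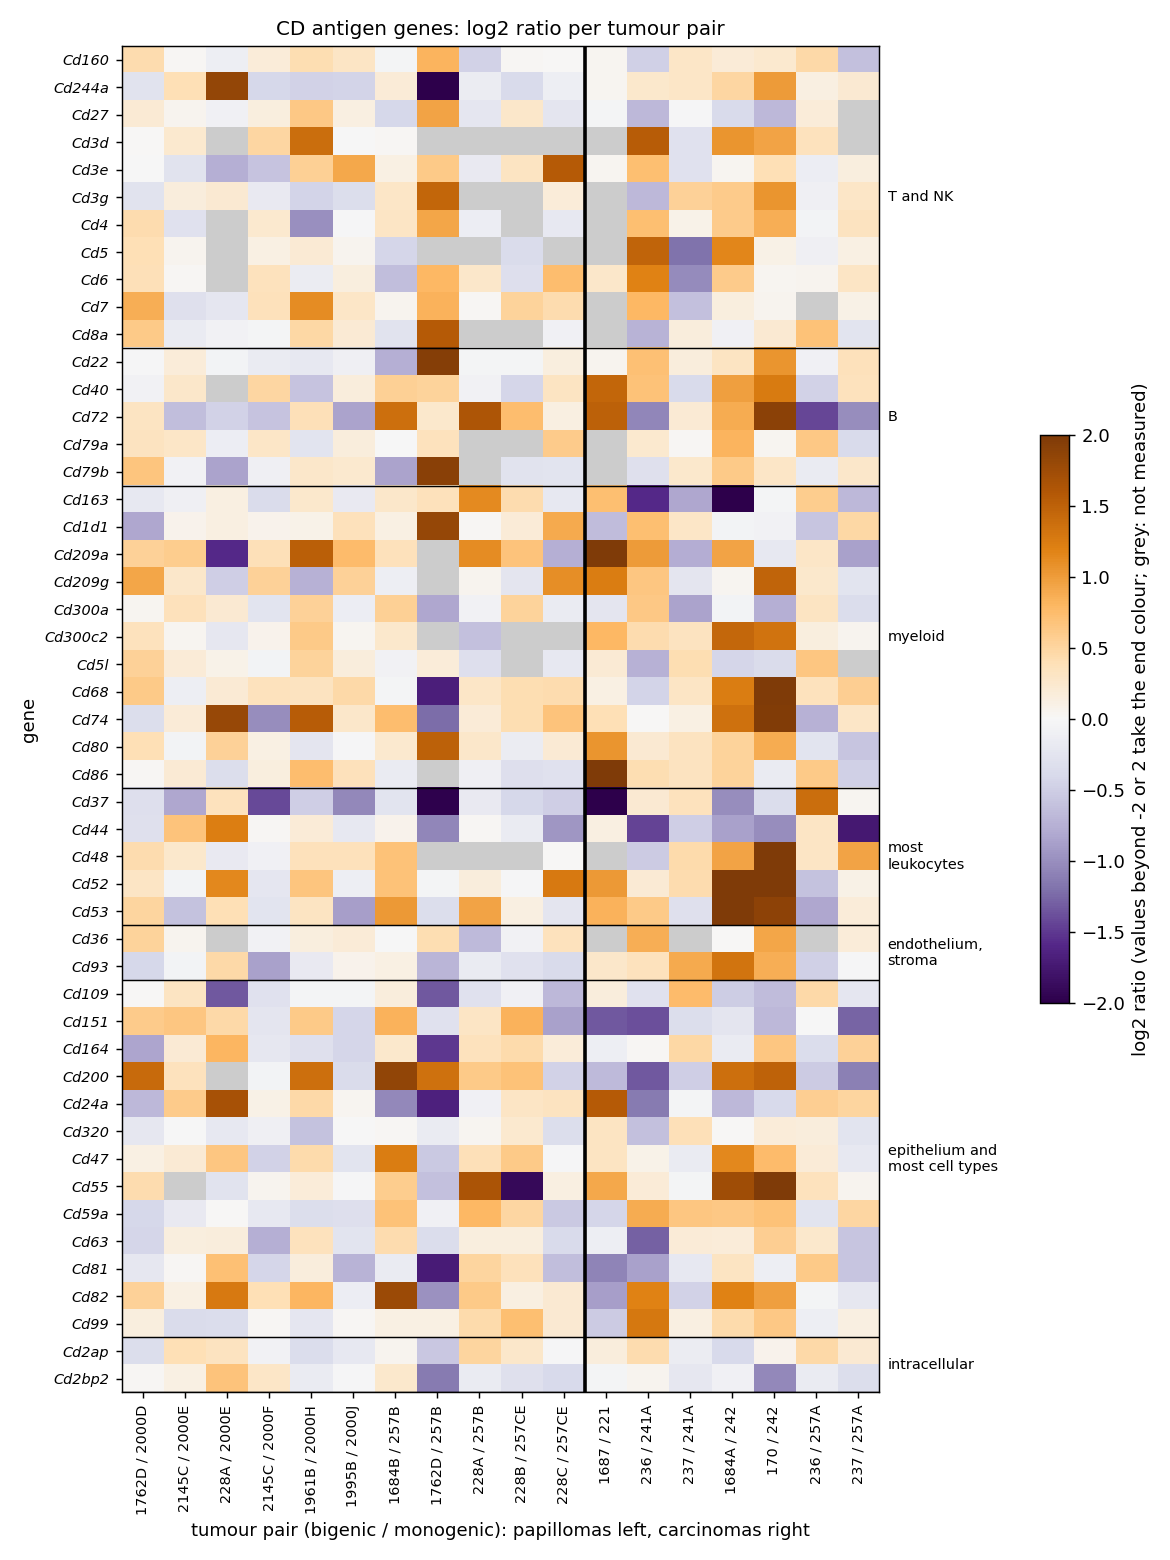
Log2 ratio of the 49 CD antigen genes (rows, by cell type group) in the 11 papilloma pairs (left) and 7 carcinoma pairs (right), named as bigenic over monogenic tumour; grey cells were not measured. The 2 carcinoma pairs that share monogenic tumour 242 hold high values of Cd48, Cd52, Cd53, Cd55, Cd68 and Cd74, and the papilloma pair 1762D with 257B holds extreme values in both directions.

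The antigens of most leukocytes held the largest fitted carcinoma value of the 46, that of Cd48. The tetraspanin Cd53 and the small glycoprotein Cd52, both found across lymphocytes and macrophages, read 2.48 and 2.10 in the pair of 1684A with 242 and 1.88 and 2.25 in the pair of 170 with 242. In the other 5 carcinoma pairs Cd53 ran from -0.81 to 0.83 and Cd52 from -0.60 to 1.02. Both pairs with tumour 242 were therefore above all the others for both genes. Cd48, an adhesion molecule of leukocytes and the ligand of Cd244a, read 0.94 and 2.20 with tumour 242 and -0.52 to 0.94 in the 4 other pairs that measured it, so the lower of the 242 pairs was level with the highest of the rest. The fitted carcinoma values were 0.63 ± 0.217 for Cd48 (adjusted p = 0.266, limma, positive in 5 of 6 pairs), 0.59 ± 0.257 for Cd52 (0.390, 6 of 7) and 0.42 ± 0.296 for Cd53 (0.647, 5 of 7). Without tumour 242 they were 0.32, 0.14 and -0.085. The 2 probes of Cd52 had the same sign in each class, at 0.53 and 0.66 in carcinomas and 0.17 and 0.49 in papillomas.

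Cd44, the hyaluronan receptor of leukocytes and keratinocytes, had the opposite side in carcinomas. Its pairs ran from -1.74 through a median of -0.86 to 0.31, with 2 of 7 positive, and the fitted value was -0.59 ± 0.228 (adjusted p = 0.314, limma). Its 242 pairs, at -0.86 and -1.01, were not set apart from the rest, and without them it was -0.49. In papillomas Cd44 was near 0, at -0.037 ± 0.183. Cd37, a tetraspanin placed here with the antigens of most leukocytes, was on the negative side in 10 of 11 papilloma pairs. Its pairs ran from -1.97 through a median of -0.48 to 0.35, and its fit was -0.56 ± 0.235 (adjusted p = 0.444, limma). The lowest of these pairs was the wide pair 1762D with 257B, without which the fitted value of Cd37 was -0.46. Carcinoma pairs of Cd37 spread from -2.39 to 1.38 around a fitted -0.0051. The median of the group was 0.22 in papillomas and 0.42 in carcinomas, with 3 of 5 members above 0 in each class.

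**Figure D2:**
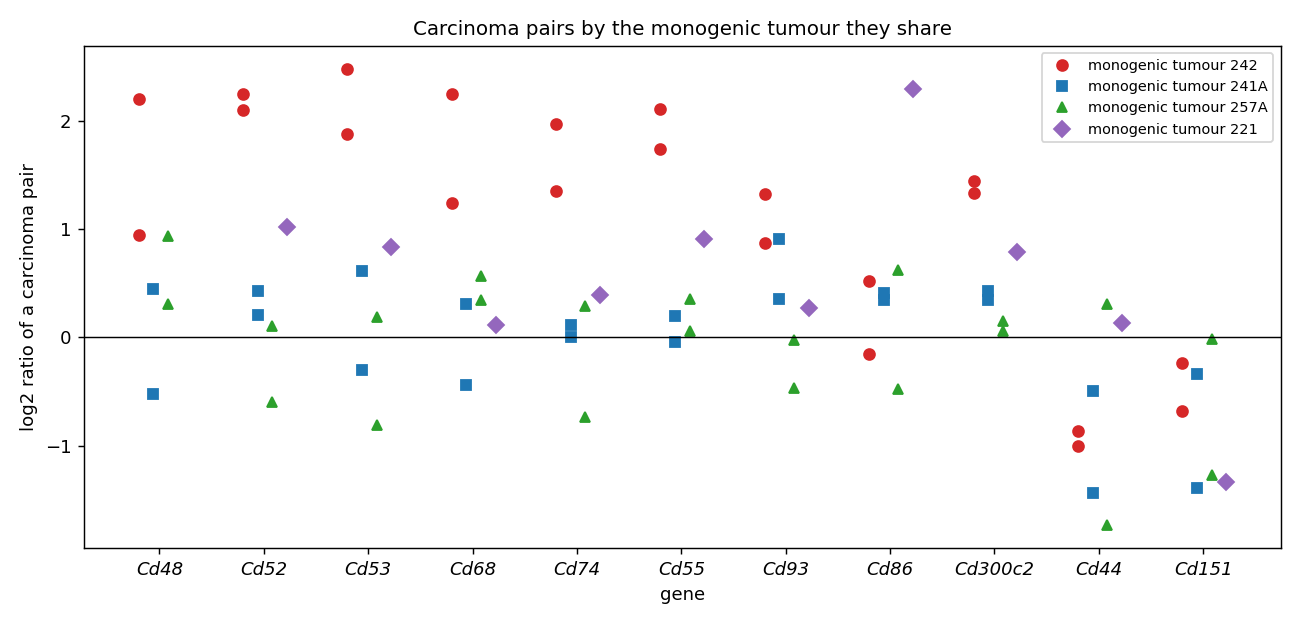
Log2 ratio of each carcinoma pair (points) for 11 CD antigen genes, with the marker giving the monogenic tumour of the pair. Pairs with tumour 242 (red circles) lie above the other pairs for Cd52, Cd53, Cd55, Cd68, Cd74 and Cd300c2, but not for Cd86, Cd44 or Cd151.

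Among the 11 myeloid antigens the fitted values were above 0 for 10 in papillomas (median 0.14) and for 8 in carcinomas (median 0.29). The median of the group was above 0 in 11 of 11 papilloma pairs, from 0.024 to 0.53, and in 5 of 7 carcinoma pairs, from -0.30 to 0.73. By the range of experiment numbers in the labels, which are not stated to be batches, it was positive on 5 of 5, 4 of 4 and 4 of 5 papilloma arrays. Every papilloma array with the bigenic tumour in Cy5 was in range 3, and the ranges also differed in their tumours. Here and below, values by range cannot be told apart from dye and tumour. Cd300c2, a receptor of the CD300 family on myeloid cells, was positive in 7 of 7 carcinoma pairs, as were 1.51% of all genes. Its values were 1.44 and 1.33 with tumour 242 and 0.055 to 0.79 in the other 5, with a fit of 0.61 ± 0.176 (adjusted p = 0.183, limma). In papillomas it was 0.092 ± 0.166 over 8 pairs, and the carcinoma minus papilloma difference was 0.52 ± 0.242 (adjusted p = 0.632). Without tumour 242 the carcinoma value was 0.35 and the difference 0.26.

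Cd68, a lysosomal glycoprotein of macrophages, read 1.24 and 2.25 in the pairs with tumour 242 and -0.44 to 0.57 in the other 5 carcinoma pairs. Its fitted carcinoma value was 0.56 ± 0.231 (adjusted p = 0.352, limma, positive in 6 of 7), and 0.22 without that tumour. Cd74, the invariant chain of MHC class II, followed the same order, with 1.35 and 1.97 in the 242 pairs against -0.73 to 0.39. The fit for Cd74 was 0.31 ± 0.290 in carcinomas, turning to -0.081 without tumour 242, and 0.33 ± 0.232 in papillomas. Among papilloma pairs Cd74 spread from -1.22 to 1.80, and Cd68 from -1.68 to 0.61 around a median of 0.34, with its lowest value again in 1762D with 257B.

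The co-stimulatory ligands of antigen-presenting cells had their highest value in another pair. Cd86 was highest, at 2.29, in the pair of 1687 with 221, and the others ran from -0.47 to 0.62. The fitted carcinoma value was 0.49 ± 0.213 (adjusted p = 0.396, limma, positive in 5 of 7), it was 0.59 without tumour 242, and in papillomas it was -0.024 ± 0.167. Cd80 read 1.05 in that pair, 0.52 and 0.88 in the 242 pairs and -0.57 to 0.34 in the other 4, with fits of 0.23 ± 0.145 in papillomas and 0.25 ± 0.181 in carcinomas. Cd163, a scavenger receptor for haemoglobin and haptoglobin complexes on macrophages, ran against the group in carcinomas. Its carcinoma pairs went from -2.01 through a median of -0.68 to 0.73, its papilloma pairs from -0.37 through 0.14 to 1.14, and the groups overlapped. The fitted values were -0.45 ± 0.248 and 0.24 ± 0.199, which differ by -0.69 ± 0.318 (adjusted p = 0.625). Papilloma arrays of Cd163 averaged -0.12, 0.57 and 0.34 in the ranges 1, 2 and 3 of experiment numbers. The remaining myeloid members (the lectins Cd209a and Cd209g, Cd1d1, Cd300a and Cd5l) had fitted values between -0.20 and 0.44 in both classes.

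T and NK cell antigens gave small values. Of the 9 tested, 8 were above 0 in each class, with medians of 0.085 in papillomas (-0.030 with a dye term) and 0.098 in carcinomas, and the median of the group was above 0 in 9 of 11 papilloma and 7 of 7 carcinoma pairs (0.041 to 0.26). Cd7, an immunoglobulin-family antigen of T and NK cells, had papilloma pairs from -0.30 through a median of 0.36 to 1.12, positive in 9 of 11, and a fit of 0.34 ± 0.143 (adjusted p = 0.459, limma). Its papilloma arrays averaged 0.47, 0.46 and -0.045 in the ranges 1, 2 and 3. Cd244a, the receptor for Cd48 on NK cells, was above 0 in 7 of 7 carcinoma pairs, from 0.040 through 0.26 to 1.01, with a fit of 0.32 ± 0.253 (adjusted p = 0.695). In papillomas the same gene ran from -2.51 to 1.83 and only 3 of 11 pairs were positive. The co-receptor Cd4 was 0.32 ± 0.184 in carcinomas (adjusted p = 0.538, 5 of 6 pairs positive) and 0.042 ± 0.157 in papillomas, and Cd8a was 0.021 ± 0.205 and 0.25 ± 0.181. The T-cell receptor chains Cd3e and Cd3g lay between 0.059 and 0.27 in both classes, and Cd6, Cd27 and Cd160 between -0.19 and 0.18.

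Cd3d, Cd5 and the scavenger receptor Cd36 were measured in too few pairs for the test. Over the pairs that measured it, Cd3d was 0.31 ± 0.241 in 6 papilloma pairs and 0.56 ± 0.260 in 5 carcinoma pairs. Cd5 was 0.0076 ± 0.240 in 7 and 0.26 ± 0.259 in 6, and Cd36 was 0.081 ± 0.134 in 10 and 0.50 ± 0.221 in 4. All of these are on the positive side, and the carcinoma values of Cd3d and Cd36 were more than 2 SE from 0.

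B cell antigens numbered 5, of which 4 were above 0 in each class (medians 0.16 in papillomas and 0.25 in carcinomas). With a dye term the papilloma median of the group turned to -0.086. Cd40, a receptor of the TNF receptor family on B cells and dendritic cells, was 0.97 and 1.25 in the 242 pairs, 1.47 in 1687 with 221 and -0.46 to 0.70 in the other 4 carcinoma pairs. Its fit was 0.34 ± 0.209 (adjusted p = 0.579, limma) and 0.12 without tumour 242. Cd72, an inhibitory co-receptor of B cells, had fitted values of 0.41 ± 0.289 in papillomas (adjusted p = 0.685) and -0.023 ± 0.347 in carcinomas, and its carcinoma pairs spread from -1.44 to 1.90. Its papilloma value rests on monogenic tumour 257B, without which it was -0.12. The sialic acid-binding receptor Cd22 was 0.30 ± 0.200 in carcinomas (adjusted p = 0.621, 6 of 7 positive) and 0.0035 ± 0.160 in papillomas. In the papilloma pair 1762D with 257B, Cd22 read 1.94, Cd79b 1.92, Cd8a 1.57 and Cd3g 1.46, whereas Cd37 read -1.97 and Cd68 -1.68. Other papilloma pairs held Cd22 at 0.17 or less and Cd79b at 0.66 or less. The fibroblast marker list had its lowest median, -2.73, in the same pair, and the part of that in these values was not tested.

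**Figure D3:**
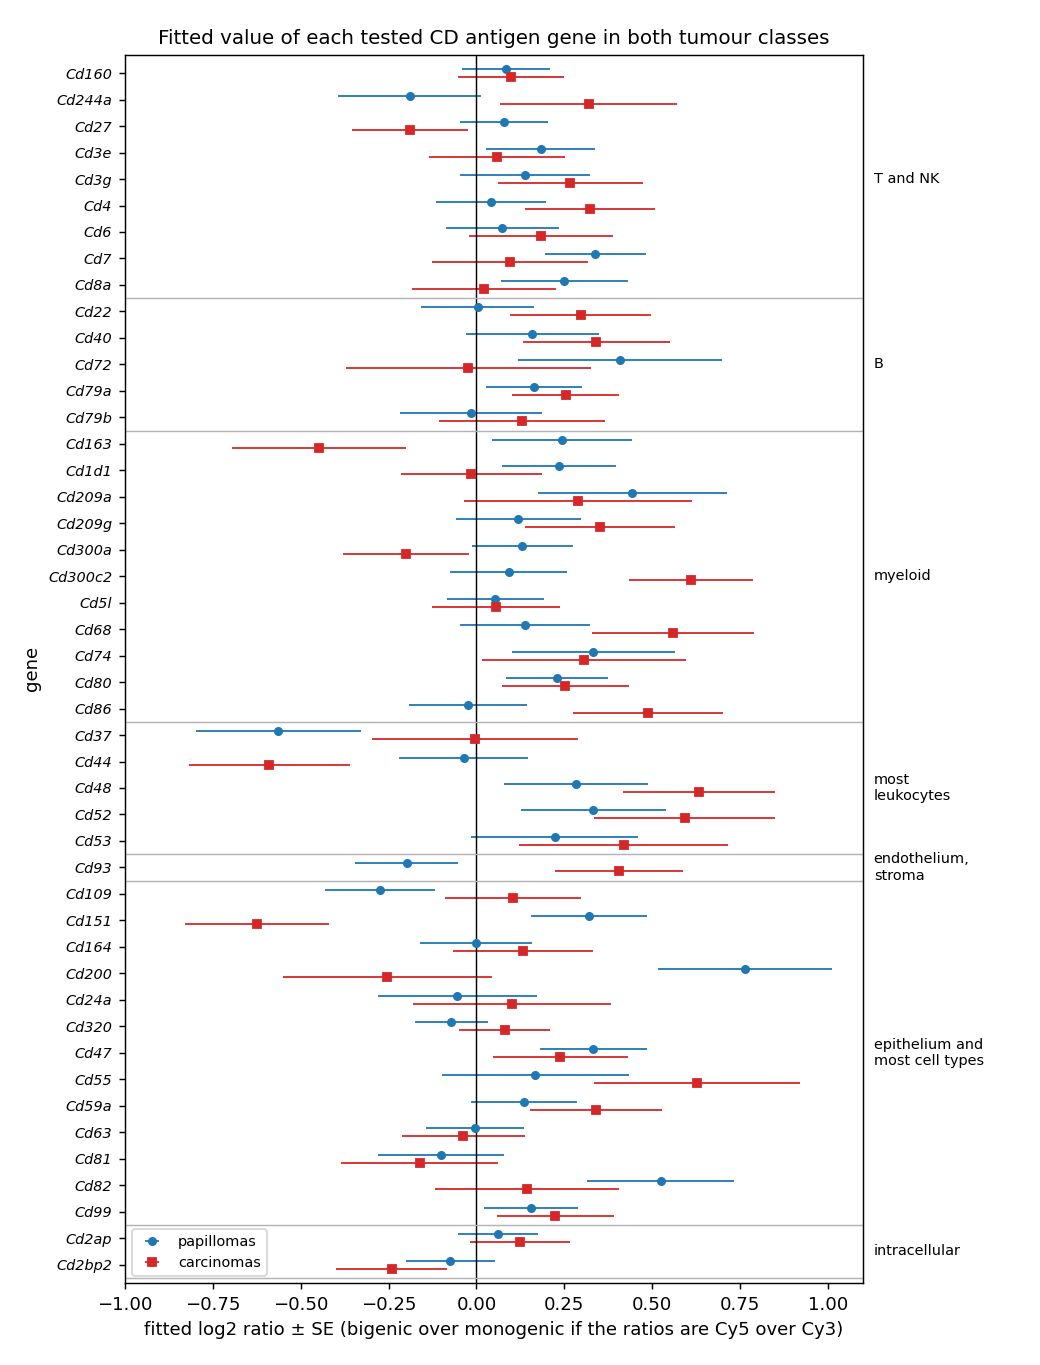
Fitted log2 ratio with its SE (horizontal bars) for the 46 tested CD antigen genes by cell type group, in papillomas (blue circles) and carcinomas (red squares). Cd151, Cd200, Cd163 and Cd93 are among the genes whose values lie on opposite sides in the classes.

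The endothelial and stromal antigens are Cd36 and Cd93. Cd93, a C-type lectin-like receptor of endothelial and myeloid cells, ran from -0.47 through 0.35 to 1.32 in carcinoma pairs and from -0.87 through -0.18 to 0.46 in papilloma pairs. The fitted values were 0.41 ± 0.182 (adjusted p = 0.417, limma) and -0.20 ± 0.146 (0.706), and they differ by 0.61 ± 0.234 (0.460). Both of its probes gave this order, at 0.54 and 0.27 in carcinomas and -0.16 and -0.24 in papillomas. Cd93 depended on single tumours. Without monogenic tumour 257A it passed the threshold in carcinomas at 0.77 (adjusted p = 0.041) and for the difference at 0.97 (0.049), and without tumour 242 the carcinoma value was 0.21. In the fit without 257A more genes passed in general. They numbered 90 of 6445 in carcinomas and 36 for the difference, against 6 and 23 of 6413 in the main fit. The 9 tested endothelial markers with other symbols had medians of -0.048 in papillomas and 0.15 in carcinomas, with 0 at an unadjusted p under 0.05 in limma's fit.

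Among the 13 antigens of epithelium and most cell types, fitted values above 0 numbered 7 in papillomas and 9 in carcinomas, and over the alternative settings the carcinoma median of 0.10 ran from -0.14 to 0.21. Cd151, a tetraspanin that binds the laminin-binding integrins of basal keratinocytes, was on the negative side in 7 of 7 carcinoma pairs, as were 1.95% of all genes. Its carcinoma pairs ran from -1.39 through -0.68 to -0.014, and its papilloma pairs from -0.86 through 0.46 to 0.84, positive in 7 of 11, so the classes overlapped. The fits were -0.62 ± 0.205 in carcinomas (adjusted p = 0.241, limma) and 0.32 ± 0.164 in papillomas (0.542). The difference of -0.94 ± 0.262 had an adjusted p of 0.160 and stayed between -1.10 and -0.93 over the alternatives, with an adjusted p from 0.022 to 0.467. It passed the threshold with a dye term, at -0.95, in a fit over unaveraged arrays that counts repeats of a pair as independent. With only the arrays whose bigenic tumour was in Cy3 the carcinoma value was -0.81 (adjusted p = 0.030). Over all genes, 57 of 5833 passed for the difference with the dye term, and 219 of 6295 in carcinomas with Cy3 only. In the main fit these were 23 and 6 of 6413. Without tumour 242 the carcinoma value of Cd151 was -0.67. Of the integrin chains that Cd151 is known to accompany, Itgb4 was -0.61 ± 0.175 in carcinomas (adjusted p = 0.173, 1 of 7 positive) and Itgb1 -0.28 ± 0.262 (0.762, 1 of 7).

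Cd200, a ligand for an inhibitory receptor of myeloid cells, had the largest fitted papilloma value of the 46 tested members. Its papilloma pairs went from -0.46 through 0.66 to 1.85 with 7 of 10 positive, and the fit was 0.76 ± 0.247 (adjusted p = 0.277, limma). In carcinomas the 242 pairs read 1.36 and 1.50 and the other 5 from -1.34 to -0.49, without overlap, so that the fitted -0.25 ± 0.297 averages values of both signs. Without tumour 242 the carcinoma value was -0.73 and the carcinoma minus papilloma difference moved from -1.02 ± 0.387 (adjusted p = 0.452) to -1.50 (0.060). By range of experiment numbers the papilloma arrays of Cd200 averaged 0.54, 0.46 and 1.34. Without monogenic tumour 257B the papilloma value was 0.45.

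**Figure D4:**
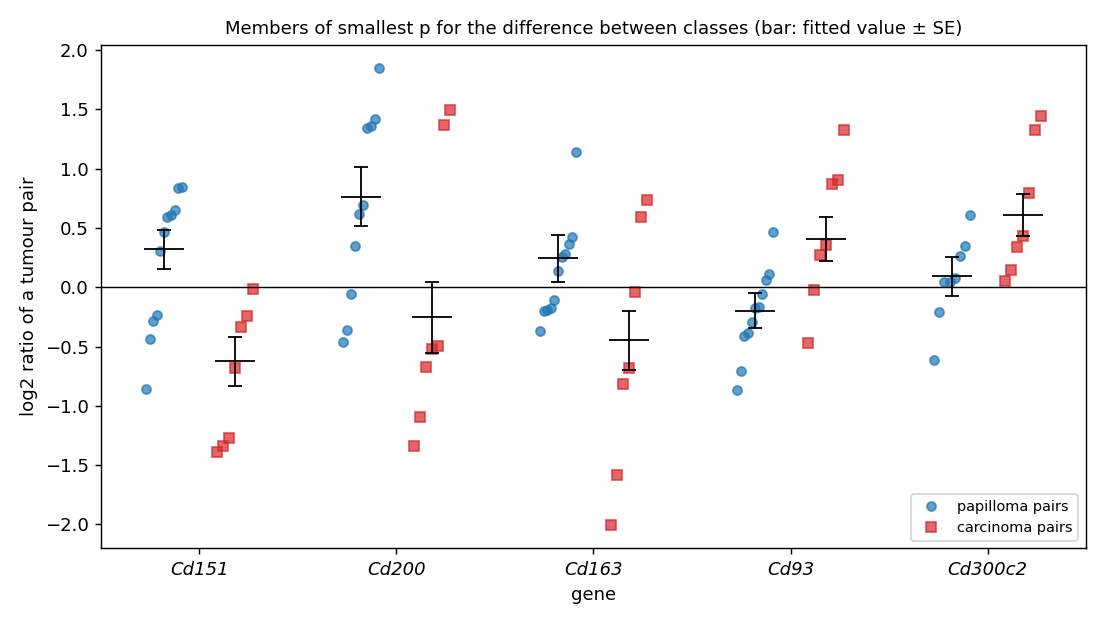
Log2 ratio of each papilloma pair (blue circles) and carcinoma pair (red squares) for the 5 members of smallest p for the difference between the classes, with the fitted value and SE as black bars. The classes overlap for each gene, and for Cd200 the carcinoma pairs split into 2 values near 1.4 and 5 below 0.

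Cd82, a tetraspanin known as a suppressor of metastasis, was positive in 9 of 11 papilloma pairs, from -0.97 through 0.40 to 1.78, with a fit of 0.52 ± 0.209 (adjusted p = 0.416, limma). Its arrays averaged 0.35, 0.70 and 0.56 in the ranges 1, 2 and 3, and the lowest pair was 1762D with 257B. In carcinomas it was 0.14 ± 0.261 with 3 of 7 positive. Cd47, the signal on most cells that restrains phagocytes, ran from -0.54 through 0.21 to 1.24 in papilloma pairs, positive in 7 of 11, with a fit of 0.33 ± 0.153 (adjusted p = 0.496) and 0.24 ± 0.191 in carcinomas. Its papilloma arrays averaged 0.013 in range 1 and 0.51 in each of the ranges 2 and 3. The other tetraspanins Cd63 and Cd81 lay between -0.16 and -0.0041 in both classes. Taking the 6 tetraspanins among the members together, 3 were above 0 in papillomas and 2 in carcinomas (medians 0.11 and -0.021), so the family had no common side.

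Cd55, the decay-accelerating factor that limits complement on host cells, resembled the leukocyte antigens in its order of carcinoma pairs. It read 1.74 and 2.11 with tumour 242 and -0.042 to 0.91 in the other 5, with a fit of 0.63 ± 0.294 (adjusted p = 0.445, limma, positive in 6 of 7) and 0.26 without that tumour. The complement regulator Cd59a was 0.34 ± 0.187 in carcinomas and 0.14 ± 0.150 in papillomas. Cd109, a co-receptor of keratinocytes that binds TGF-beta, was -0.27 ± 0.156 in papillomas (adjusted p = 0.588, 3 of 11 positive) and 0.10 ± 0.194 in carcinomas. Cd24a, Cd164, Cd320 and Cd99 had fitted values between -0.072 and 0.23. The adaptor Cd2ap and the spliceosome protein Cd2bp2 were 0.062 ± 0.115 and -0.074 ± 0.126 in papillomas and 0.12 ± 0.143 and -0.24 ± 0.157 in carcinomas. In all, the 24 members not named by the rule had fitted values from -0.27 to 0.44 in papillomas and from -0.20 to 0.42 in carcinomas.

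Seen as a whole, the positive carcinoma members depended on the 2 pairs that hold monogenic tumour 242. That tumour was paired only with bigenic tumours 1684A and 170, and each of these only with it. Leaving out tumour 242 therefore also removed both partners, and their parts cannot be told apart. Without that tumour, at an unadjusted p under 0.05 limma's fit gave 1 of 46 members on the positive side (Cd86, background 1.97%) in place of 7, and 2 on the negative side (Cd151 and Cd200, background 3.78%). The share of members with a fitted carcinoma value above 0 was 69.6% without tumour 242, against 73.9% with it and 48.4% of all genes without it. Leaving out its partners gave 2 positive members without bigenic tumour 1684A and 3 without 170. The share over all genes in those fits is not given here. Leaving out monogenic tumour 257A instead gave 12 of 47 (background 7.62%), Cd36 among them. In papillomas 1 member, Cd7, was left on the positive side without monogenic tumour 257B (background 2.70%), and 0 on the negative side (background 2.87%).

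**Figure D5:**
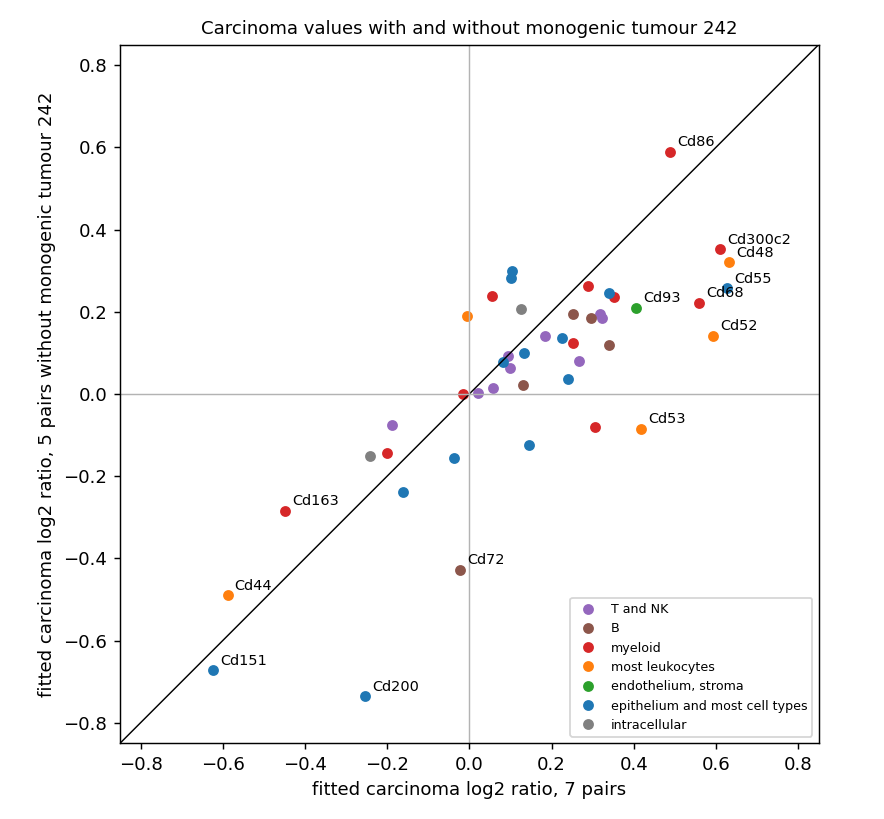
Fitted carcinoma log2 ratio of the 46 tested CD antigen genes from all 7 pairs (horizontal axis) and from the 5 pairs without monogenic tumour 242 (vertical axis), coloured by cell type group, with the line of equal values. Cd52, Cd53, Cd48, Cd55, Cd68 and Cd200 fall well below the line, and Cd151 and Cd86 stay close to it.

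The order of carcinoma pairs seen for Cd52, Cd53 and Cd68 also held for marker genes that are not among the members. The median of 14 tested macrophage markers was 1.25 and 1.55 in the 242 pairs, 0.55 in 1687 with 221 and -0.060 to 0.44 in the other 4. MHC class II genes and their loading factors, 7 in number, gave 0.86, 1.22, 0.74 and -0.17 to 0.14 in the same order. The same pairs were also high for adipocyte and muscle markers and for neutrophil and mast cell markers. Adipocyte and muscle markers gave 0.97, 1.66, 2.32 and -1.26 to -0.16 in that order. Neutrophil and mast cell markers gave 0.34, 1.41, 0.78 and -0.66 to -0.10. Fibroblast markers gave 0.44, 0.62, 0.77 and -0.21 to 0.46. Endothelial markers gave 0.93, 0.0645, 0.039 and -0.43 to 0.29, and keratinocyte markers -0.42, -0.66, -0.35 and -0.49 to -0.0365. The endothelial and keratinocyte lists thus did not follow that order. None of the 14 macrophage markers was on the negative side at an unadjusted p under 0.05 in limma's fit in carcinomas (background 6.38%). On the positive side were 8 of them (background 4.44%). They include the lysozyme Lyz2 at 1.25 ± 0.369 (adjusted p = 0.183, limma), the macrophage receptor Adgre1 at 0.61 ± 0.208 (0.263) and Laptm5 at 0.61 ± 0.213 (0.266). The part that these lists have in the members' values was not tested. Of the leukocyte antigens that carry a CD number under another symbol, 6 of 26 were on the positive side at that p in carcinomas (background 4.44%). These were Itgb2 at 0.80 ± 0.288 (adjusted p = 0.278, limma), Selplg at 0.76 ± 0.283 (0.298), Il7r at 0.70 ± 0.231 (0.243), Fcgr1, Adgre5 and Siglec1. None of the 26 was on the negative side, and in papillomas 0 of 26 had an unadjusted p under 0.05 although 22 were above 0 (median 0.11).

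Of the 38 tested epithelial, stromal and broadly expressed antigens under other symbols, some had an unadjusted p under 0.05 in limma's fit. On the negative side were 7 in carcinomas (background 6.38%) and 3 in papillomas (5.47%), and on the positive side 1 (4.44%) and 2 (4.32%). In carcinomas those of smallest p were Itgb4, the cadherin Cdh1 at -0.54 ± 0.163 (adjusted p = 0.190, limma) and the syndecan Sdc1 at -0.73 ± 0.228 (0.213). In papillomas they were the transferrin receptor Tfrc at -0.94 ± 0.230 (0.130, 2 of 11 positive), Epcam at 0.89 ± 0.238 (0.181, 11 of 11) and the ectonucleotidase Nt5e at 0.92 ± 0.273 (0.221, 9 of 11). Beside them, the 13 keratinocyte markers had medians of -0.30 in papillomas and -0.32 in carcinomas. The median of this list was below 0 in 7 of 7 carcinoma pairs, but its genes did not all share that side. In carcinomas 3 of the 13 had fitted values above 0, namely Krt15 at 0.75, Krt10 at 0.68 and Lor at 0.62. In papillomas 1 did, Epcam. The part of this list in the values of Cd151 and Cd44 was not tested. Among tetraspanins under other symbols, Tspan15 was 0.43 ± 0.131 in papillomas (adjusted p = 0.234, 10 of 11 positive). None of the 12 lists held a gene past the threshold in either class.

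Further marker lists gave medians of 0.091 in papillomas and 0.13 in carcinomas for 7 T and NK cell markers, 0.086 and -0.015 for 6 B cell markers, and 0.24 and 0.091 for 11 neutrophil and mast cell markers. Among the last, the calgranulins S100a8 and S100a9, which keratinocytes of tumours also make, were -0.80 ± 0.253 (adjusted p = 0.213, limma) and -0.86 ± 0.306 (0.271) in carcinomas. Fibroblast markers, 9 tested, had medians of -0.18 and 0.33, and 9 adipocyte and muscle markers 0.58 and 0.30. Of these last 9, 7 were above 0 in each class. The adipocyte gene Fabp4 went the other way. It was -1.38 ± 0.318 in papillomas (adjusted p = 0.121, limma, 0 of 11 positive) and -1.03 ± 0.396 in carcinomas (0.304, 1 of 7). Adipoq, also of adipocytes, was 0.30 ± 0.197 and 0.35 ± 0.227.

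RefSeq promoters (GRCm38.p6, from 250 bases before to 50 after a start site) were found for 36 of the 49 members, 43 sequences in all. The mouse reference sequence was used, not that of the FVB strain. The letters GAGGAA, the core recognised by the myeloid and B cell factor Spi1, were searched on both strands and occurred in 22 of the 43 (51.2%), against 28.3% of 32851 promoters of the same length. They were in 15 of 24 promoters of the 23 matched members in the leukocyte groups (62.5%) and in 7 of 19 of the other 13 members (36.8%). The letters CAGAC, a Smad-binding element, occurred in 14 of 43 (32.6%), against 49.6% of all promoters. A match describes the letters of the window and is not a site of binding. Shown here are 3 members that were high in the carcinoma pairs with tumour 242 and, for contrast, Cd151, which was negative in every carcinoma pair. Capitals mark GAGGAA or, where it lies on the other strand, its complement TTCCTC. Cd53 is on the minus strand at chr3:106790100-106790399, Cd68 on the minus strand at chr11:69666121-69666420, Cd300c2 on the minus strand at chr11:115001831-115002130, and the first of the Cd151 starts on the plus strand at chr7:141467112-141467411.
Cd53: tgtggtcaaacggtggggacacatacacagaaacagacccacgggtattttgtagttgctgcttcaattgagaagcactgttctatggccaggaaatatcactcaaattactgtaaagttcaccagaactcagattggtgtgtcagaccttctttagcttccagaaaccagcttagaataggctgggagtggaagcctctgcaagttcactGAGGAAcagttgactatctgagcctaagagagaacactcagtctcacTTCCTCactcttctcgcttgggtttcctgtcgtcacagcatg
Cd68: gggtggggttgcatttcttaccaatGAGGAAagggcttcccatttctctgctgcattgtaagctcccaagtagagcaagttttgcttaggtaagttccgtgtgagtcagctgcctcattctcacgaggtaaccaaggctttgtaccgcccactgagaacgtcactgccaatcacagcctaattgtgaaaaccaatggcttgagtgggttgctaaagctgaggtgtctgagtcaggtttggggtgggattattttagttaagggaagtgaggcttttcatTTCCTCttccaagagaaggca
Cd300c2: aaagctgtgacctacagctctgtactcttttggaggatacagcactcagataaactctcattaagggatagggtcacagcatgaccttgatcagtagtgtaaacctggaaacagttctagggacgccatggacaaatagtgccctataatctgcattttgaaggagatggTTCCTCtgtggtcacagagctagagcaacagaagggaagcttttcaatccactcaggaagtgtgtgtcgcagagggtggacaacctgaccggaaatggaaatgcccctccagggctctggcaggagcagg
Cd151: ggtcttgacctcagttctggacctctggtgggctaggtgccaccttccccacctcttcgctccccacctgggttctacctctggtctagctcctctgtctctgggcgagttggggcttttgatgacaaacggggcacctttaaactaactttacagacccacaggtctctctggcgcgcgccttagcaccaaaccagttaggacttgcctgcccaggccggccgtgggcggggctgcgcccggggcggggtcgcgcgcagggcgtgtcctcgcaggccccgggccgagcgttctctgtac
Cd53 and Cd68 each hold the core once on each strand, Cd300c2 holds it once on the opposite strand, and neither of the Cd151 windows holds it. The members shown do not stand for the rest. The windows of Cd48 and Cd55, also high with tumour 242, do not hold it. That of Cd44, on the negative side in carcinomas, holds it 2 times.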

How the data were processed

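The members and the marker lists were chosen with earlier results of these data known. Per the labels, 23 arrays each compared a bigenic with a monogenic tumour, their cDNA coupled to Cy3 or Cy5. The authors deposited 1 ratio per probe and array, taken here as log2. How that ratio was formed (numerator, log base, background correction, normalization) is not given in the sources used here. Arrays with the bigenic tumour in Cy3 (18) and Cy5 (5) were turned the same way and centred on their medians. Arrays that repeat a pair of extracts were averaged, which left 18 pairs, and probes were averaged per gene, named from the platform annotation. limma 3.58.1 in R 4.3.3 fitted 1 mean per class, weighted by arrays, to genes in at least 8 papilloma and 5 carcinoma pairs, and was tested on simulated data.

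Full values are given for members with an unadjusted p under 0.05 (up to 12 per side and class), the 3 of largest fitted value per cell type group, the 5 of smallest p for the difference and any with all pairs of a class on 1 side. Of each marker list, up to 3 genes of smallest p per class are named. Cd53, Cd74, Cd80, Cd109 and further list genes were singled out after their values were seen. Same-numbered arrays of the classes were not paired (r above 0.1 for 1 of 9 numbers). Alternatives changed centring, scale, dye, weights, shared tumours, missing-value filter and probes.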

Additional observations from a re-analysis of the deposited data

Results flagged for a closer look

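Pairs that stand apart were sought in 29 sets of pair values of the named members, and 2 were found. Sets with all 11 papilloma pairs measured were not examined, so most papilloma sets are not covered. Cd22, at 1.94 in the papilloma pair 1762D with 257B, was among the sets left out. Chance gives about 1 in 20, so 2 of 29 is close to that share for the sets examined. For Cd2bp2 in carcinomas the pair of 170 with 242 read -1.04, and the nearest of the other 6 pairs read -0.33. For Cd86 in carcinomas the pair of 1687 with 221 read 2.29, and the nearest read 0.62. For no named member, of 22 examined, did the difference between the classes pass the threshold or all pairs of the classes lie on opposite sides.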

How the results depend on the processing

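The members' medians stayed on the positive side under all 15 alternatives and all 24 fits that left out 1 tumour, from 0.091 to 0.17 in papillomas and 0.10 to 0.23 in carcinomas over the alternatives. At an unadjusted p under 0.05, the 7 positive carcinoma members numbered 3 with equal spread on every array or with genes measured in all pairs, 4 with a dye term, the mean per linked group of tumours, classes fitted separately or the range of experiment numbers as a term, and 11 with pairs unweighted. The 2 negative carcinoma members numbered 1 with quantile normalization or a dye term and 4 with the bigenic tumour in Cy3 only. The 4 positive papilloma members numbered 2 with pairs unweighted or measured in all pairs. The 1 negative papilloma member became 0 with a dye term, with the mean per linked group of tumours or without the pair 1762D with 257B (an alternative chosen after seeing the data), and 2 with Cy3 only. These counts are given without the share over all genes in each setting, so they cannot be compared between settings as a result about the members. The members tested differed too, at 29 when measured in all pairs and 40 with a dye term, against 46 in the main fit. Members past the threshold numbered 1 in place of 0 for the difference with a dye term (Cd151). The same held for carcinomas with Cy3 only (Cd151) and with the range as a term (Cd86 at 1.15, adjusted p = 0.042, limma). Over all genes, 57 of 5833 passed for the difference with a dye term, against 23 of 6413 in the main fit. In carcinomas 219 of 6295 genes passed with Cy3 only and 29 of 6393 with the range as a term, against 6 of 6413. The fit with a dye term ran over unaveraged, unweighted arrays, counted repeats of a pair as independent and tested 5833 genes. The T and NK median of 0.098 in carcinomas was 0.20 with Cy3 only, 0.18 with the mean per bigenic tumour, per linked group or with at least 2 measured pairs, 0.25 with the range as a term and 0.036 with a dye term. With a dye term the papilloma medians turned to -0.030 for T and NK cells and -0.086 for B cells. Cd2ap in carcinomas was -0.00036 with the range as a term. The cause was not tested.

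Over the fits without 1 tumour, members past the threshold ran from 0 to 1 for carcinomas, the difference and the mean of both classes. Of all genes, those past it ran from 3 (without 241A) to 90 (without 257A) in carcinomas. For the difference they ran from 5 (without 257B) to 36 (without 257A). Positive members ran from 1 to 12 in carcinomas (10 without bigenic tumour 236 and 11 without 237) and 1 to 5 in papillomas. Negative members ran from 1 to 4 and 0 to 2. The positive share over all genes in carcinomas moved as well, to 1.97% without tumour 242 and 7.62% without 257A. The T and NK carcinoma median ran from 0.037 to 0.18, Cd2ap in carcinomas from -0.041 (without 236 or 257A it was negative) to 0.21 and Cd72 in papillomas from -0.12 to 0.59. With the label's array number as a replicate block over unaveraged arrays, 0 members passed the threshold for the difference, as without it, and 10 genes in all passed in place of 23. Pairs that share tumours and small numbers of arrays limit the precision of every value.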
